A study of Mus musculus with 6 samples.

Results

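The skeletal muscle sarcomere genes are 39 mouse genes for the filaments, Z-discs and M-bands of the contractile unit of striated muscle, followed here in B16 melanomas. A gene entered by its platform symbol if it had a probe with a detection p-value under 0.05 on 3 or more of 6 arrays, and its brightest such probe was used. This gave 30 of the 39 genes, among 10523 genes tested in all. No probe was named here for Myh2, Myh7, Myl2, Myl3, Neb, Tnni1, Myot, Xirp1 and Smpx, which were not analysed. Of the 30 genes, 26 were detected on all 6 arrays, and Ldb3 passed only through small tumors.

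The large group held 3 tumors of 70 to 80 mm2 and the small group 3 tumors of 10 to 20 mm2, all taken 8 days after inoculation of 400000 cells of B16, a transplantable melanoma line of the C57BL/6 strain, into C57BL/6 mice. Each tumor was freed of adjacent normal tissue before RNA was taken, and 100 ng of RNA was amplified over successive rounds and hybridised to 1 Illumina bead array. The genotype is that of the strain in both groups, and no treatment, age or number of mice is stated, so a p-value reflects only how far these 6 tumors spread. The study's title concerns interleukin-1 alpha and resistance to immunotherapy, and its design sets large against small tumors.

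In a sarcomere, thick filaments of myosin slide along thin filaments of actin. Troponin and tropomyosin on the thin filament let myosin bind when calcium rises. Thin filaments are anchored in the Z-disc, thick filaments are crosslinked in the M-band, and titin spans between them. Fast and slow fibres use different genes for many of these proteins, and the heart shares some of its forms with slow fibres. The B16 line is of melanocyte origin, and mature sarcomeres are a feature of muscle fibres and heart rather than of melanocytes. The same amount of RNA was used from every tumor, so the signals compare shares of the RNA and not amounts per tumor. In a whole tumor, a smaller share of muscle cells and less RNA per muscle cell cannot be told apart. Whether the amount of muscle RNA per tumor differed between large and small tumors was not tested.

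Sarcomere genes were lower in large than in small tumors in every part of the structure. Of the 30 genes, 21 fell and 0 rose at an adjusted p under 0.05 (limma, over all 10523 genes), against 1.68% of all genes tested that fell and 0.789% that rose. The remaining 9 were not called, and 5 of these had an unadjusted p under 0.05. In all, 26 genes had an unadjusted p under 0.05 with large lower, against 10.2% of all genes. The median log2 fold change (large minus small) was -1.53 over the 30 genes and -0.00 over all genes tested. A log2 fold change of -1 or less was measured in 25 of the 30, against 2.58% of all genes, and Myh4 fell 4.97-fold, Tcap 4.93-fold and Tnnt3 4.60-fold. Ldb3 passed the filter only through small tumors and so had to differ. Without it, an omission chosen after seeing the data, 20 of 29 genes were called and the median was -1.57. The members had been chosen with earlier results of these data known, so these counts describe the list and do not test it.

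The calls depended on single arrays and on scaling. Without large replicate 1 or without large replicate 3, 0 of the 30 genes were called (limma, 0% of all genes lower), although 26 and 27 had an unadjusted p under 0.05. Without small replicate 3, 1 gene was called (0.0095% of all genes lower), without small replicate 1 there were 10 (0.732%), without large replicate 2 there were 11 (0.276%) and without small replicate 2 there were 14 (2.12%). The median over the 30 genes stayed between -1.70 and -1.42 in these fits. With each array scaled to its median in place of quantile normalization, 12 genes were called lower, against 0.627% of all genes.

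The arrays themselves differed in brightness. Median probe brightness was 116.7 to 128.3 on the large and 104.2 to 115.0 on the small arrays, and small replicate 1 had the fewest detected probes, 17310, while the others had 18331 to 19771. In the signals as deposited, before normalization, 16 of the 30 genes were lower on every large array than on any small one, against 1.09% of all genes, while 56% of all genes were higher on every large array. After normalization the groups did not overlap, with large lower, in 26 of the 30 genes, against 13.6% of all genes. The 4 genes whose groups overlapped were Actc1, Tnnc1, Tnnt1 and Tpm1. The lowest value of a detected probe was 4.88 to 5.18 per array on the normalized log2 scale, and values near it have little room to fall. All array values below are normalized log2 signals in the order of replicates 1 to 3. Levels of different genes come from different probes and are not set against each other.

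**Figure D1:**
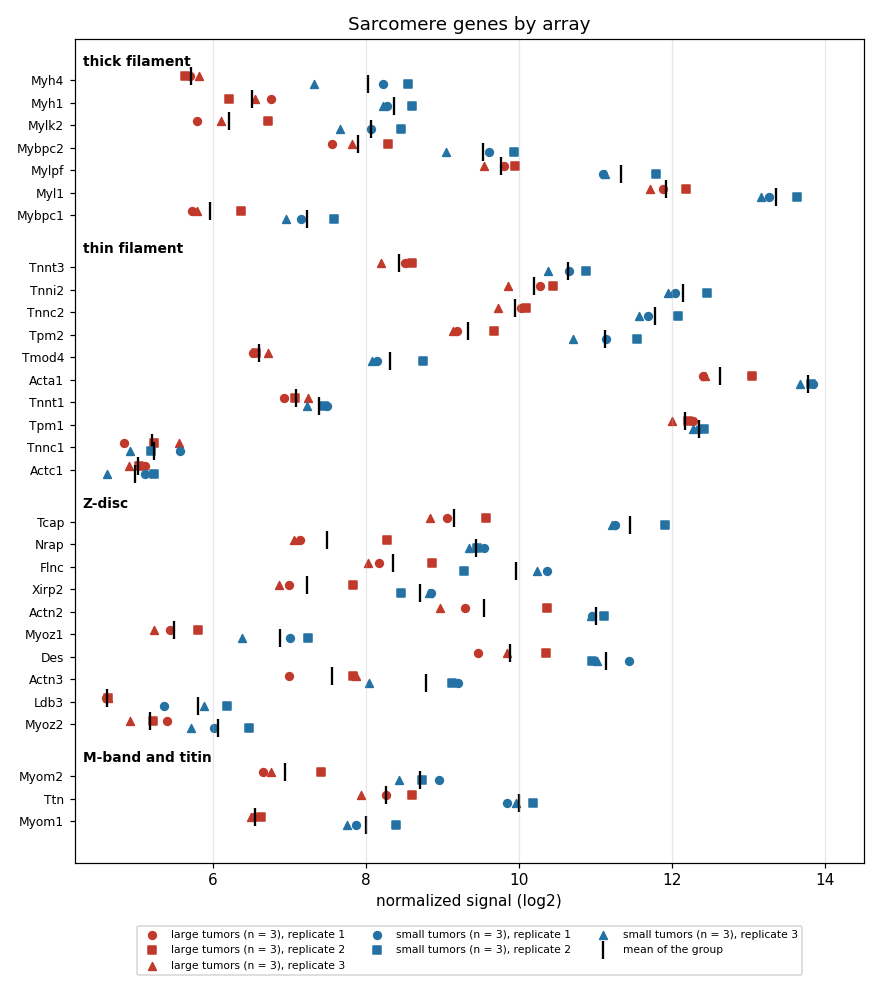
Normalized log2 signal of the 30 measured sarcomere genes on each array, grouped by place in the sarcomere (rows) and sorted by change. Large tumors are red and plotted above small tumors in blue, symbols mark the replicate and black bars the mean of 3; in 26 genes all large arrays lie left of all small arrays.

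Sequence before the transcription start is shown for the fast and slow genes of troponin C (Tnnc2, which fell, and Tnnc1, which was not called and lay near the lowest detected signal), for Myh4, a fast myosin that fell, and for Tnnt1, the slow troponin T. Each is the 250 bases before the start from RefSeq (GRCm38.p6), read 5′ to 3′ on the gene's strand. Capitals mark any match of the motifs searched on both strands.
Tnnc2, chr2:164779735-164779984, minus strand: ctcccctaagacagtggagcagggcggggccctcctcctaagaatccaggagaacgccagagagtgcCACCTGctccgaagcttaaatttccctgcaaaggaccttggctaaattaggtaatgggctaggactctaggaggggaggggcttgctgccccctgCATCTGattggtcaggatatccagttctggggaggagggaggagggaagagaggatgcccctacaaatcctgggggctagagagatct
Tnnc1, chr14:31208062-31208311, plus strand: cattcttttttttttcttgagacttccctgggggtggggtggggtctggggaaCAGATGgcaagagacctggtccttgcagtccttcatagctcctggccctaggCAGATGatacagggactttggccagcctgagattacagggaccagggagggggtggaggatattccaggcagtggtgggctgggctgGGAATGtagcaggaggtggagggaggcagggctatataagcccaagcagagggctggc
Myh4, chr11:67237562-67237811, plus strand: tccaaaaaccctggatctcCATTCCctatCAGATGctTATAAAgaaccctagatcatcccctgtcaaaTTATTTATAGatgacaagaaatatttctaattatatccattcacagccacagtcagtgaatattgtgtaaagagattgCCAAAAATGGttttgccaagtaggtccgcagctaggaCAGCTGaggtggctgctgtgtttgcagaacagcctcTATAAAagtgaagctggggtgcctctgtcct
Tnnt1, chr7:4515976-4516225, minus strand: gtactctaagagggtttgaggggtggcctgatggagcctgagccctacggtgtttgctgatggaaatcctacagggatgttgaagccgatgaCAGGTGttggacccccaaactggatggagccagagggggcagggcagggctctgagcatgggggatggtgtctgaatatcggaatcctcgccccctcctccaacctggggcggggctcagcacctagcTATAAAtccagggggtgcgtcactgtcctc

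The motifs were the E-box CANNTG, bound by MyoD and its relatives among many other factors, its form CAGCTG, the TATA sequence TATAAA, the MCAT element CATTCC, and the MEF2 site and the CArG box, the site of serum response factor, each by its consensus. CAGCTG is contained in CANNTG, and TATAAA can overlap a MEF2 site, as it does in Myh4. Of the 39 listed genes, 29 had a start in the table, with 34 windows between them. An E-box stood in 26 of the 34 windows, against 66.2% of all 32851 windows, and CAGCTG in 12 of 34, against 13.0%. TATAAA stood in 6 windows (12.4% of all windows), CATTCC in 10 (12.6%), a MEF2 site in 5 (2.92%) and a CArG box in 7 (1.47%). In the windows printed, the E-boxes of Tnnc2 begin 183 and 88 bases before the start, those of Tnnc1 197 and 145 bases, and the MEF2 site and CArG box of Myh4 182 and 104 bases. These are matches of letters, not measured binding.

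All 7 measured thick filament genes, of 11 listed, were called lower (against 1.68% of all genes), with a median of -1.64. The slow myosin chains Myh7, Myl2 and Myl3 were not measured, nor was Myh2. Myh4 (probe ILMN_1241214), the myosin heavy chain of the fastest fibres, read 5.70, 5.63 and 5.82 in large tumors, against 8.23, 8.54 and 7.32 in small tumors. The 3 large values sat close together just above the lowest detected signal, while small replicate 3 was the lowest of the small tumors. Myh4 fell by 2.31 ± 0.30 (SE, n = 3 per group, limma adjusted p = 0.0324). The size depended on the background correction, with a log2 fold change of -1.28 on uncorrected signals and -1.78 with a larger offset, where Tcap was at -2.12 and -2.23 and Tnnt3 at -1.93 and -2.10. Myh1 (ILMN_2865744), the heavy chain of fast 2X fibres, read 6.75, 6.22 and 6.55 in large tumors and 8.28, 8.61 and 8.22 in small tumors. It fell by 1.86 ± 0.18 (limma adjusted p = 0.0161), and its groups were apart by 1.47 between the highest large and the lowest small array. The 2 heavy chain genes are close copies, and how far either probe also binds the other's RNA was not tested.

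The light chains stiffen the lever arm of myosin and tune its movement. Myl1, the essential light chain of fast myosin, read 11.89, 12.18 and 11.70 in large tumors, against 13.27, 13.63 and 13.16 in small tumors, a log2 fold change of -1.43 ± 0.18 (limma adjusted p = 0.0292). Mylpf, the fast regulatory light chain, read 9.80, 9.95 and 9.54 in large tumors and 11.10, 11.79 and 11.12 in small tumors, a log2 fold change of -1.57 ± 0.22 (limma adjusted p = 0.0324). For both genes large replicate 2 was the highest large tumor and small replicate 2 the highest small tumor. The other detected probes of these genes also had negative differences, at -1.64 and -1.29 for Myl1 and -1.75 for Mylpf. Mylk2, the skeletal muscle kinase of the regulatory light chain, fell by 1.86 ± 0.29.

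Myosin binding protein C lies along the thick filament and restrains the heads. Its fast form Mybpc2 read 7.56, 8.29 and 7.82 in large tumors and 9.61, 9.93 and 9.05 in small tumors, and fell by 1.64 ± 0.27 (limma adjusted p = 0.0399). Its slow form Mybpc1 read 5.73, 6.37 and 5.80 in large tumors, against 7.16, 7.58 and 6.96 in small tumors, and fell by 1.27 ± 0.23 (limma adjusted p = 0.0454). Mybpc1 was the only slow-fibre gene of the 4 measured that was called.

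The thin filament was divided, with 6 of 10 measured genes called lower (against 1.68% of all genes), 4 not called and a median of -1.43. The 3 fast troponin subunits fell together. Tnnt3 (ILMN_2469018), which ties troponin to tropomyosin, read 8.51, 8.60 and 8.20 in large tumors, against 10.66, 10.88 and 10.38 in small tumors. It fell by 2.20 ± 0.17 (limma adjusted p = 0.0161) and had the smallest p of all 10523 genes. The Tnnt3 groups were 1.79 apart between the highest large and the lowest small array, wider than for any other measured sarcomere gene.

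Tnni2, the fast subunit that inhibits the filament at rest, read 10.27, 10.44 and 9.86 in large tumors and 12.04, 12.45 and 11.95 in small tumors, a log2 fold change of -1.96 ± 0.20 (limma adjusted p = 0.0181). Tnnc2 (ILMN_2882658), the fast subunit that binds calcium, read 10.02, 10.09 and 9.72 in large tumors and 11.69, 12.08 and 11.57 in small tumors, a log2 fold change of -1.83 ± 0.17 (limma adjusted p = 0.0161). In all 3 fast troponins large replicate 3 was the lowest array and small replicate 2 the highest. Tpm2, beta tropomyosin, which smooth muscle also makes, fell by 1.79 ± 0.24, and its other probe was at -0.52. Tmod4, which caps the pointed end of thin filaments, fell by 1.72 ± 0.19, and Acta1, the skeletal alpha actin, fell by 1.15 ± 0.19, the smallest fitted change among the 21 called genes.

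The 4 thin filament genes that were not called were 2 slow troponins, alpha tropomyosin and cardiac actin. Tnnt1, slow troponin T, read 6.94, 7.07 and 7.25 in large tumors, against 7.49, 7.45 and 7.23 in small tumors, with a log2 fold change of -0.30 ± 0.13 (limma adjusted p = 0.227). Large replicate 3 lay above small replicate 3, and Tnnt1 was detected on all 6 arrays well above the lowest detected signal. Tnnc1, the troponin C of slow fibres and heart, read 4.84, 5.23 and 5.56 in large tumors and 5.57, 5.20 and 4.92 in small tumors, at -0.02 ± 0.23 (limma adjusted p = 0.972). These values lie around the lowest detected signal. A fall of Tnnc1 could not be seen at this depth of signal.

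Tpm1, alpha tropomyosin, is also made by cells outside striated muscle. It had 12.28, 12.21 and 12.001 in large tumors and 12.35, 12.41 and 12.27 in small tumors, at -0.18 ± 0.12 (limma adjusted p = 0.391), and its other probe was at -0.12. Actc1, cardiac alpha actin, was detected on 2 of 3 large and 1 of 3 small arrays, with 5.11, 5.04 and 4.90 in large tumors and 5.11, 5.23 and 4.61 in small tumors. Its difference was 0.03 ± 0.18 (limma adjusted p = 0.935), with both groups near the lowest detected signal. With each array scaled to its median in place of quantile normalization, which set the median of all genes 0.34 higher in large tumors, Tpm1 was at 0.27, Tnnt1 at 0.04 and Tnnc1 at 0.12, none of them called.

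**Figure D2:**
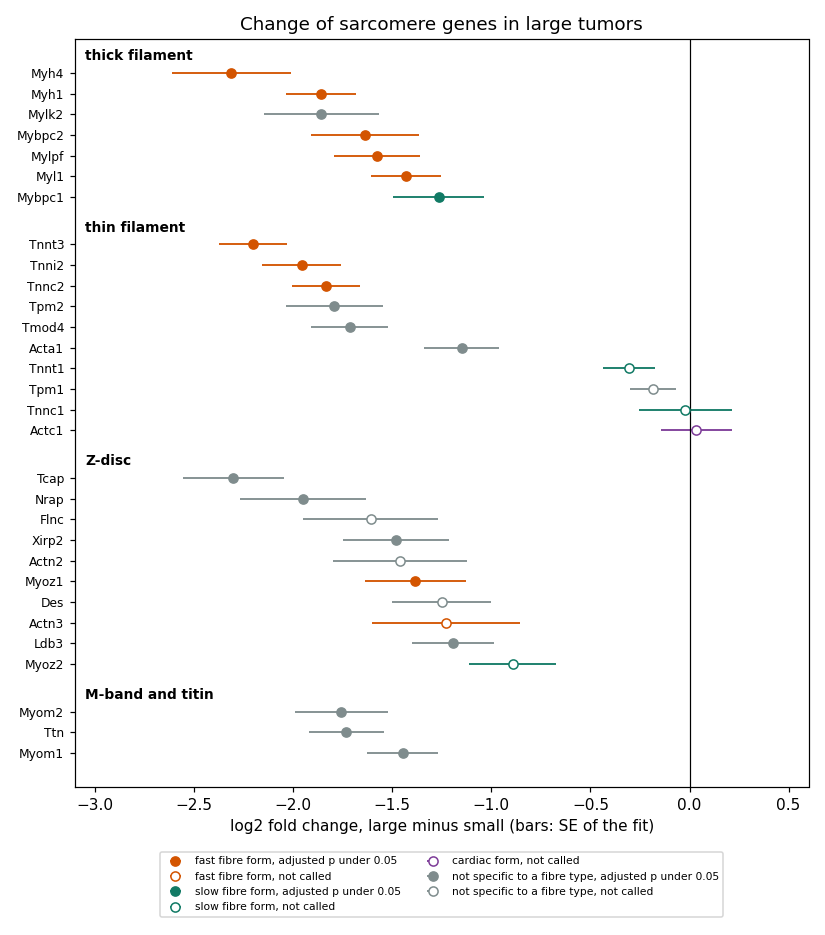
Log2 fold change (large minus small, n = 3 per group) of the 30 measured sarcomere genes with the SE of the fit as bars. Filled points passed an adjusted p under 0.05 in limma and open points did not; colours give the fibre type of the form, and the genes near 0 are Tnnt1, Tpm1, Tnnc1 and Actc1.

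Z-disc genes and their partners had log2 fold changes from -2.30 to -0.89, none rising, with a median of -1.42. Of these 10 genes, 5 were called lower (4 of 9 without Ldb3), against 1.68% of all genes. Tcap (ILMN_2696682), telethonin, which ties together the ends of titin molecules, read 9.06, 9.56 and 8.84 in large tumors, against 11.25, 11.90 and 11.21 in small tumors. Tcap fell by 2.30 ± 0.26 (limma adjusted p = 0.023), and its other probe was at -1.95. Nrap, an anchoring protein of the nebulin family, read 7.14, 8.27 and 7.06 in large tumors and 9.54, 9.45 and 9.34 in small tumors, a log2 fold change of -1.95 ± 0.32 (limma adjusted p = 0.0395). Large replicate 2 stood above the other large tumors by over 1, while the small tumors lay within 0.20 of each other.

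The same array set Actn2 apart. Actn2, the alpha-actinin of all skeletal fibres, read 9.29, 10.37 and 8.97 in large tumors and 10.95, 11.11 and 10.95 in small tumors. Its log2 fold change of -1.46 ± 0.34 was not called (limma adjusted p = 0.0764), and it was -1.87 without large replicate 2, where it was called. Actn3, the alpha-actinin of fast fibres, read 6.99, 7.83 and 7.87 in large tumors and 9.20, 9.12 and 8.04 in small tumors, at -1.23 ± 0.37 (limma adjusted p = 0.126). Its highest large and lowest small array were only 0.18 apart, and its other probes were at -1.11 and, close to background, -0.13. Across the 30 genes large replicate 2 was the highest large tumor in 20.

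Calsarcins bind alpha-actinin and the phosphatase calcineurin at the Z-disc. The fast form Myoz1 read 5.44, 5.81 and 5.23 in large tumors, against 7.003, 7.25 and 6.38 in small tumors, and fell by 1.38 ± 0.25 (limma adjusted p = 0.047). The form of slow fibres and heart, Myoz2, read 5.41, 5.21 and 4.91 in large tumors and 6.02, 6.47 and 5.72 in small tumors, at -0.89 ± 0.22 (limma adjusted p = 0.0862). Both forms were near the lowest detected signal in large tumors.

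Of the remaining Z-disc genes, Xirp2, a Xin-repeat protein that binds actin, fell by 1.48 ± 0.27. Ldb3, a PDZ-LIM protein that binds alpha-actinin, was detected in none of the large and all of the small tumors. With this probe and the main normalization it was at least 1.80-fold lower in large tumors, a bound set against the lowest detected signal. Among the alternatives its log2 fold change ran from -1.27 to -0.39, so the bound does not hold for every processing. Because it passed the filter only through small tumors, its limma adjusted p of 0.042 does not test the fall. Its other detected probe was at -0.55. Flnc, muscle filamin, was at -1.61 ± 0.34 and Des, desmin, the intermediate filament that links neighbouring Z-discs, at -1.25 ± 0.25 (limma adjusted p = 0.0618 and 0.0573). In both, every large tumor was below every small tumor, as in 13.6% of all genes.

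Of titin and the M-band, 3 of 3 genes were called lower, against 1.68% of all genes. Ttn (ILMN_3128792), titin, the elastic filament of the sarcomere, read 8.26, 8.60 and 7.93 in large tumors, against 9.85, 10.18 and 9.96 in small tumors, and fell by 1.73 ± 0.19 (limma adjusted p = 0.0229). Its other detected probes disagreed, at -1.51, -0.11 and 0.21, and the last pair was detected on 3 and 4 arrays only. Myom1, a myomesin that crosslinks thick filaments, read 6.53, 6.63 and 6.50 in large tumors and 7.87, 8.39 and 7.75 in small tumors, a log2 fold change of -1.45 ± 0.18 (limma adjusted p = 0.0286), with its other probe at -0.49. Myom2, the second myomesin, read 6.65, 7.41 and 6.76 in large tumors and 8.95, 8.73 and 8.43 in small tumors, a log2 fold change of -1.76 ± 0.23 (limma adjusted p = 0.0324). Of 18 further detected probes of the 30 genes, 17 had a negative difference.

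Fast forms had a median log2 fold change of -1.74 (10 genes, 9 called lower) and slow forms of -0.60 (4 genes, 1 called lower). The forms not tied to a fibre type had -1.61 (15 genes, 11 called lower). Among all genes tested, 1.68% were called lower. Of 8 listed pairs of a fast and a slow form of the same protein, 4 were measured on both sides. In each of them the fast form had the more negative change, and the 3 large arrays did not overlap the 3 small ones in the difference between the forms. How often this holds for other gene pairs was not tested. The difference in log2 fold change, fast minus slow, was -1.90 for Tnnt3 against Tnnt1, -1.81 for Tnnc2 against Tnnc1, -0.49 for Myoz1 against Myoz2 and -0.37 for Mybpc2 against Mybpc1. Each had a two-sided exact permutation p of 0.1, the smallest that 3 against 3 arrays can give, so none could pass 0.05.

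For Tnnt3 against Tnnt1 the per-array difference, set to a mean of 0 in small tumors, was -1.67, -1.72 and -2.30 in large tumors and -0.08, 0.18 and -0.10 in small tumors. For Mybpc2 against Mybpc1 it was -0.47, -0.38 and -0.27 in large tumors and 0.16, 0.05 and -0.21 in small tumors, so the groups were nearly in contact. The slow partners Tnnc1 and Myoz2 were near the lowest detected signal, and Tnnt1 and Mybpc1 were detected on all arrays. The change of Mybpc1 still depended on the background correction, at -0.63 on uncorrected signals. The part of signal level in these differences was not tested.

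**Figure D3:**
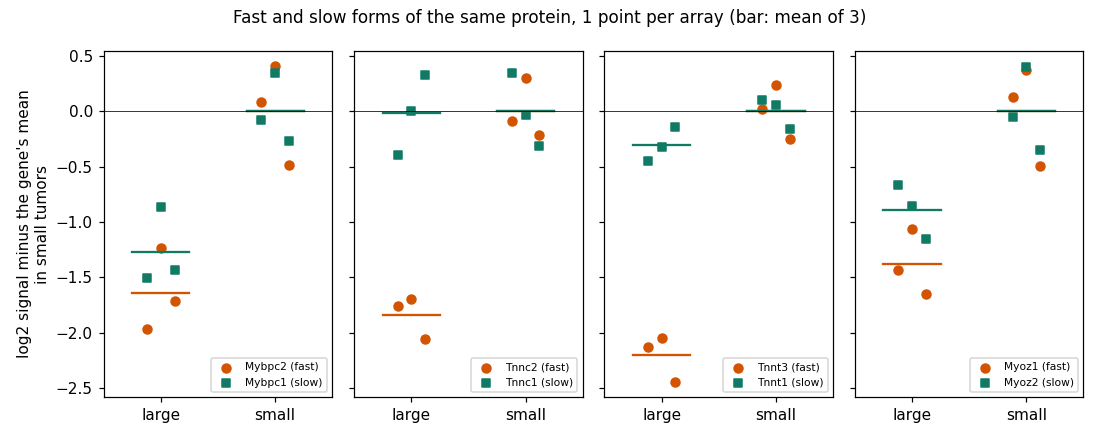
Log2 signal of the fast form (orange circles) and the slow form (green squares) in 4 pairs, each gene set to a mean of 0 in small tumors, with 1 point per array and a bar for the mean of 3. In large tumors the means of the fast troponins Tnnt3 and Tnnc2 lie at -2.20 and -1.83, and those of the slow troponins Tnnt1 and Tnnc1 at -0.30 and -0.02.

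Other lists of muscle fibre genes, kept apart from the sarcomere, also held genes that fell in large tumors. Falls and rises are counted at a limma adjusted p under 0.05, against 1.68% of all genes that fell and 0.789% that rose. In the lists below, in order, 14 of 15, 12 of 13 and 12 of 15 genes had a negative change. In the first list 12 genes had an unadjusted p under 0.05 (limma), 11 of them lower in large tumors. Of 15 tested genes of muscle energy metabolism 4 fell and 0 rose, with a median of -0.99 and the smallest p in Ckm, muscle creatine kinase, at -2.39 ± 0.20, and Pgam2, the muscle phosphoglycerate mutase, at -2.05 ± 0.25. Of 13 genes of calcium handling and the fibre membrane 6 fell and 0 rose, with a median of -0.85 and the smallest p in Pvalb, the calcium buffer parvalbumin, at -2.62 ± 0.30, and Atp2a1, the calcium pump of fast fibres, at -1.87 ± 0.25. Of 15 genes of muscle protein turnover and assembly 4 fell and 0 rose, with a median of -0.94 and the smallest p in Cmya5, a costamere protein, at -1.46 ± 0.17, and Trim72, a membrane repair protein, at -1.39 ± 0.23. The largest fall among the 4 was that of Csrp3, the muscle LIM protein, at -1.95 ± 0.34. Sgca, Cav3 and Stac3, all of the fibre membrane and its calcium release, did not pass the detection filter.

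Genes of muscle transcription and regeneration gave 0 calls among 7 tested (limma, against 2.47% of all genes in either direction), with 2 at an unadjusted p under 0.05 and a median of -0.52. Those with the smallest p were Ankrd2, a stretch-responsive protein of slow fibres, at -1.17 ± 0.23 (limma adjusted p = 0.0554), and Mef2c, a transcription factor of muscle and other lineages, at -0.36 ± 0.11 (limma adjusted p = 0.136). Myog and Myf6, regulators of muscle differentiation, were at -0.52 ± 0.34 and -0.61 ± 0.32, and Myh8, the perinatal myosin, at 0.38 ± 0.43, none of them called. Myog and Myh8 were detected on 2 of 3 large arrays and Myf6 on 1, which limits what their changes show. Chrng, the fetal acetylcholine receptor subunit, and Cdh15, a cadherin of muscle precursors, did not pass the filter.

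Relatives of the sarcomere genes in other cells had medians near 0. Of 12 tested cytoskeleton genes of non-muscle cells 0 were called (limma) and 4 had an unadjusted p under 0.05, with a median of -0.03, and those with the smallest p were the non-muscle alpha-actinin Actn4 at 0.72 ± 0.14 (limma adjusted p = 0.0583) and the light chain Myl12b at -0.49 ± 0.11 (limma adjusted p = 0.0702). Of 7 smooth muscle genes 0 were called (limma) and 2 had an unadjusted p under 0.05, with a median of -0.02. Among them were Myocd, a coactivator of smooth muscle and heart genes, at -0.45 ± 0.14 and Smtn, smoothelin, at -0.33 ± 0.11 (limma adjusted p = 0.138 and 0.145). Myocd was detected on no large array and passed the filter only through small tumors, so its p does not test a fall. Acta2, smooth muscle actin, was at 0.00 ± 0.38 and Myh11, smooth muscle myosin, at -0.02 ± 0.42. Of 11 listed heart genes only Nppb and Myl4 were tested, at 0.46 ± 0.24 and 0.70 ± 0.48, and the others were not analysed here.

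Among markers of other cells, 3 lists had medians below -0.5, those of T cells at -1.47, adipocytes at -0.81 and macrophages at -0.61. Falls are again counted at a limma adjusted p under 0.05, against 1.68% of all genes. Of 7 tested T cell markers 4 fell, with the smallest p in Cd3d at -1.55 ± 0.21 and in Zap70 at -0.86 ± 0.13. Zap70 and Cd2, both counted as falls, were detected on no large array. They passed the filter only through small tumors, so their p-values do not test a fall. Their summed linear signal was 2460 to 2800 in large and 2225 to 2889 in small tumors, most of it from Cd8b1, which was at 0.25 ± 0.14 and not called. Without Cd8b1 the sum was 190 to 239 in large and 449 to 782 in small tumors, and all 6 other markers were negative with an unadjusted p under 0.05. Of 9 macrophage markers 1 fell, Aif1 at -1.60 ± 0.25, while all 9 were negative and 6 had an unadjusted p under 0.05, with sums of 6190 to 8762 in large and 8021 to 12895 in small tumors, and C1qa was at -0.70 ± 0.20. Of 5 adipocyte markers 0 were called (limma), 3 had an unadjusted p under 0.05 and all 5 were negative, with sums of 1590 to 2385 in large and 2755 to 3302 in small tumors. Lpl was at -0.63 ± 0.17 and Pparg at -0.73 ± 0.24. Cidea did not pass the filter, and the other listed adipocyte genes were not analysed here. The part of these cells in the sarcomere result was not tested.

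Keratinocyte markers varied between arrays without following the groups, with sums of 895 to 68815 in large and 577 to 46462 in small tumors and 0 of 13 called (limma, 0 at an unadjusted p under 0.05). Their array medians, in deviations from each gene's mean, were 2.59, -0.29 and -2.89 in large tumors and -2.90, 1.42 and 1.98 in small tumors. Krt10 was at -1.76 ± 2.46 and Krt15 at -0.63 ± 0.96. The sarcomere medians on the same arrays were -0.88, -0.41 and -0.95 in large tumors and 0.82, 0.99 and 0.52 in small tumors. Large replicates 1 and 3 had nearly equal sarcomere medians and the highest and the near-lowest keratinocyte medians. The part of keratinocytes in the sarcomere result was not tested.

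Fibroblast (10 tested), endothelial (10), nerve and Schwann cell (5), blood (2) and melanocyte (10) markers gave 0 calls (limma), with medians of -0.17, -0.08, -0.03, -0.01 and 0.14 and with 1, 0, 1, 0 and 2 genes at an unadjusted p under 0.05. In the same order 7, 6, 3, 2 and 0 genes had a negative change. All 10 melanocyte markers thus had a positive change, with sums of 115134 to 122078 in large and 104766 to 111822 in small tumors. The part of melanocytes in the sarcomere result was not tested. The genes with the smallest p were Dpt, a dermal matrix protein, at -0.59 ± 0.19 and Lum at 0.53 ± 0.25, Eng at 0.21 ± 0.14 and Kdr at 0.16 ± 0.15, the myelin genes Mag at -0.65 ± 0.16 and Pmp22 at -0.30 ± 0.14, Hba-a1 at -0.02 ± 0.44 and Alas2 at -0.01 ± 0.56, and the pigment genes Gpr143 at 0.56 ± 0.14 and Tyr at 0.88 ± 0.23. Of these, Mag passed the filter only through small tumors, with no large array detected, so its p does not test a fall.

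**Figure D4:**
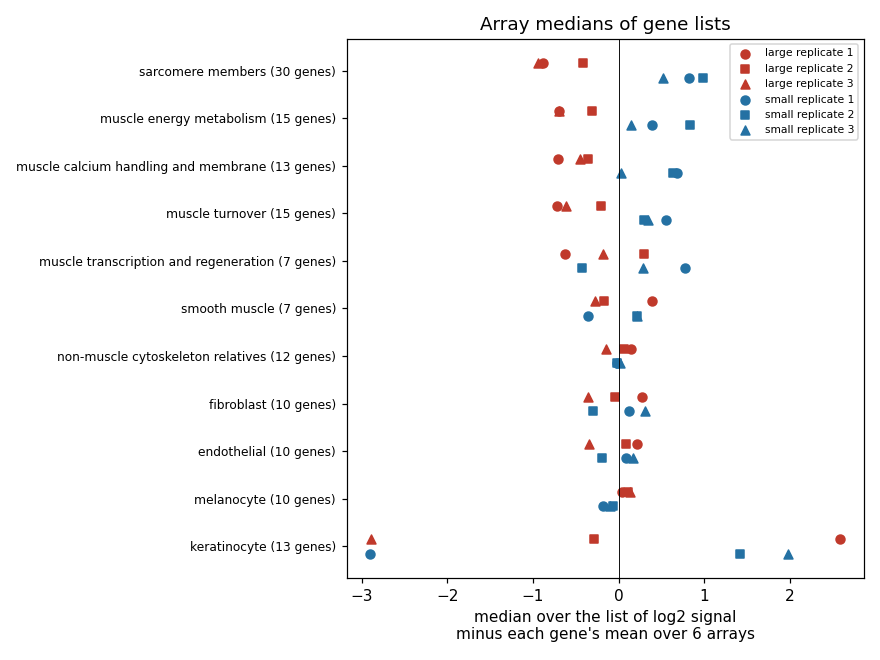
Median over each gene list of the normalized log2 signal minus each gene's mean over 6 arrays, with 1 point per array; large tumors are red and above small tumors in blue. The sarcomere medians lie between -0.95 and -0.41 in large tumors and between 0.52 and 0.99 in small tumors, and the keratinocyte medians spread from -2.90 to 2.59 across both groups.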

How the data were processed

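Signals were deposited as intensity, the mean bead brightness per probe on a linear scale, with a detection p-value per probe and array, per the file headers. They were read with GenomeStudio, per the submitters' processing notes, and its version is not given in the sources used here. Background had not been subtracted, as the lowest signals were 84.2 to 98.4. The arrays had not been brought to a common median either, as their median signals ran from 104.2 to 128.3. A second deposited table of intensity, used as an alternative, is linear, reaches down to 28.8 on every array, and has array medians of 128.5 to 132.7 for large and 119.99 to 131.6 for small tumors. Its columns correlated best with their own arrays (r at least 0.941 after centring each probe), and its centring and background correction are unknown.

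The function neqc of limma 3.58.1 (R 4.3.3, offset 16) corrected background, equalised quantiles and took log2. Probes detected on at least 3 arrays (detection p under 0.05) were kept, 19120 of 45281, of which 16256 had 1 gene symbol in the platform annotation, at hand only for the 20346 probes of the second table. Of 17300 annotated probes 17278 matched RefSeq by Entrez identifier, and 0 symbols changed. The brightest probe per gene gave 10523 genes, to which limma's lmFit and eBayes were applied (group alone, Benjamini-Hochberg adjustment). Errors are SE of the fit, and 3 arrays per group limit the precision. Array files gave no slide or scan date. No arrays shared identical signals (0% of probes). The fit was first tested on simulated data.

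Full values were given for both genes of the 4 measured of 8 listed fast and slow pairs and, per structure, the 2 genes with the smallest and the 1 with the largest p, and of other lists the 2 with the smallest p. Full values were also given for Myh4, Mylpf, Tnni2, Tpm1, Actc1 and Actn2, which this rule does not cover. Members, lists and this rule were chosen with earlier results of these data known. Acta2, Myh11, Myog, Myf6, Myh8, Csrp3 and Cd8b1 were named after their values were seen. Alternatives were 3 normalizations, the second table, 3 filters, 2 probe rules, 2 variance settings, a replicate block and omission of each array.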

Additional observations from a re-analysis of the deposited data

How the results depend on the processing

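All 21 called sarcomere genes kept a negative change in every alternative run. The number called was 12 (0.627% of all genes lower) when arrays were scaled to their medians without quantile normalization, and 0 to 14 when 1 array was left out. The median over the 30 genes was -1.14 with median scaling and -1.18 when quantiles were equalised on uncorrected signals. The median fast minus slow difference was -1.15, and -0.98 with median scaling. The count over all genes was 260 (177 lower, 83 higher), and it was 408 on uncorrected signals (226 lower, 182 higher), 162 with median scaling (66 lower, 96 higher), 402 when detected on all 6 arrays, 656 with a trended and robust prior, 574 with array weights and 0 to 300 when 1 array was left out (2303 and 1591 genes at an unadjusted p under 0.05 without large replicate 1 and large replicate 3, limma). Same-numbered samples did not deviate together (r = -0.55, -0.07 and -0.45 across genes), so the numbers were not taken as pairs. With the replicate block 109 genes were called (102 lower, 7 higher), and 14 sarcomere genes against 0.969% of all genes lower. Myh4, Mybpc2, Acta1, Ldb3, Nrap, Xirp2 and Myom2 were not called with the replicate block (adjusted p from 0.0501 for Mybpc2 to 0.103 for Xirp2).

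Signs turned only in genes that were not called. Actc1 was at -0.011 with the authors' processed values, and -0.15 to -0.012 without small replicate 3 or large replicate 1. Tnnc1 was at 0.12 with median scaling, 0.11 with array weights and -0.20 to 0.16 when 1 array was left out (0.15 without small replicate 1, 0.16 without large replicate 1). Tnnt1 and Tpm1 were at 0.039 and 0.27 with median scaling. Of 536 values of single genes under alternatives, 395 kept sign and side of the threshold, 121 lost the call, 11 gained it and 9 changed sign. Signal near background limits Tnnc1, Actc1, Ldb3 and Myoz2, and the size of the change in Myh4, Mybpc1 and Myoz1. Mybpc1 was at -0.63 on uncorrected signals, and the smallest fall of Myoz1 among the alternatives was -0.60. The causes were not tested.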
